A study of Mus musculus with 8 samples.

Results

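The Janus kinase gene Jak3, 5 genes of the signal transducers and activators of transcription (Stat3, Stat4, Stat5a, Stat5b and Stat6) and 4 genes of the suppressors of cytokine signalling (Socs1, Socs2, Socs3 and Cish) were read in spleen CD4 T cells sorted by the transcription factor KLF2. The members were taken by symbol from the table of 25124 genes, and all 10 were found. The filter on low counts kept 19146 genes, all 10 members among them. Donor mice carried 2 reporters, GFP for KLF2 and RFP for FOXP3. All groups were FOXP3-negative, CD44hi CD4 T cells, and they differed in the KLF2 reporter (KLF2+ or KLF2-) and in stimulation. The groups were stimulated KLF2+, unstimulated KLF2+, stimulated KLF2- and unstimulated KLF2- cells, with 2 libraries each. Stimulated cells received anti-CD3 at 2.5 micrograms/mL, which engages the T cell receptor, and anti-CD28 at 1.25 micrograms/mL, which engages a costimulatory receptor, and all cells were harvested at 48 h. The age, strain and number of mice are not given in the sources used here. Nothing in the labels says that the 2 libraries of a group came from different mice or cultures, and p-values therefore reflect how far these libraries differ, and that spread could be technical.

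Cytokine receptors without enzyme activity of their own rely on bound Janus kinases, which phosphorylate the receptor and then the STAT proteins, and the STAT proteins enter the nucleus and switch on target genes. In T cells JAK3 sits on the common gamma chain of the receptors for IL-2, IL-4, IL-7, IL-9, IL-15 and IL-21. SOCS proteins are feedback inhibitors: many are transcribed in response to STAT activity, bind receptors or kinases, and damp the signal. The STAT proteins are themselves activated by phosphorylation, which RNA levels do not measure.

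STAT and interferon-regulated factors act at short DNA elements, so the promoter stretches of SOCS genes that hold the letters of such elements are shown. Sequence came from RefSeq promoter windows of the build GRCm38.p6, which run from 250 bases before to 50 after each gene's start. Of the 10 members 9 had an entry, with 12 windows in all. Socs2 had none, so its promoter was not searched. The palindrome TTCNNNGAA, the shape of a STAT site, read the same on both strands. It lay in the windows of 2 members, Cish and Socs3, and 8.30% of all 32851 mouse windows of this length held it. Cish held 2 copies near its start, and 0.457% of all windows held 2 or more. Capitals mark the motif in both sequences.
Cish, chr9:107296655-107296683, plus strand: agttTTCCTGGAAagTTCTTGGAAatctg
Socs3, chr11:117969502-117969529, minus strand: aaaccagccTTCTTAGAAgggagggggg
The form with 4 bases between its TTC and GAA ends, bound best by STAT6, was in no member's window and in 6.95% of all windows. A pair of GAAA runs with 2 bases between them, the shape of an interferon response element, was sought on both strands and lay in the windows of Socs1 and Stat4, against 3.44% of all windows. In Socs1 there were 2 overlapping copies, and 0.225% of all windows held 2 or more. The 250 bases before the Socs1 start, with these copies in capitals, were as follows.
Socs1, chr16:10785537-10785786, minus strand: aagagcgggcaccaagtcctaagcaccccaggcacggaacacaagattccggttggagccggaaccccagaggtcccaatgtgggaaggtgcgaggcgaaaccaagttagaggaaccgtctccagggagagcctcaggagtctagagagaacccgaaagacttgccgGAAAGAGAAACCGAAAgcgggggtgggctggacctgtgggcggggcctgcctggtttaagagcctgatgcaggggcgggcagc
A match describes the letters of a window, and binding was not measured.

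On mm10, Stat5b (chr11:100780731-100813370), Stat5a (chr11:100859351-100885169) and Stat3 (chr11:100886806-100939540) lay within one stretch of a chromosome. Socs3 (chr11:117966087-117969366) lay on the same chromosome. Jak3 was at chr8:71676383-71690577, Stat4 at chr1:52008240-52107189, Stat6 at chr10:127642986-127660987 and Socs2 at chr10:95411490-95416857. Socs1 was at chr16:10783809-10785536 and Cish at chr9:107296659-107302784. Values are for all exons of the RefSeq transcript model at these coordinates together, so exons of a gene's other transcripts may lie outside them. Both Stat5b promoter windows, for example, lay upstream of its model. Stat5a and Stat5b shared 608 stretches of 50 bases, which made up 14.7% of those of Stat5a and 11.1% of those of Stat5b, so the split of reads between them is uncertain to that extent. No other pair among the 45 member pairs shared any. Insl3 overlapped Jak3 on the same strand and shared 8.04% of its stretches, and Nab2 overlapped the end of Stat6 by 70 bases on the opposite strand.

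Libraries held 33.9 to 45.6 M aligned tags (M, mega), of which 7.96% to 80.3% lay in exons, giving 2.99 to 36.6 M exon reads. Olfactory and vomeronasal receptor genes, which have no known role in T cells, served as a gauge of background reads. As a share of exon reads, background was 1.25% and 0.402% in stimulated KLF2+ libraries and 7.08% and 2.62% in unstimulated KLF2+ libraries. It was 11.4% and 20.2% in stimulated KLF2- libraries and 7.83% and 7.12% in unstimulated KLF2- libraries. Stimulated KLF2- replicate 4 stood apart, with the fewest exon reads and the most background. Fold changes and counts of calls of the members are given as counted, and also after a correction. Marker calls and many fold changes of pathway genes are given as counted only. CPM are counts relative to each library's total, adjusted by TMM factors, and fold changes as counted use these factors too. The factors were 0.630 and 0.626 in stimulated KLF2+ and 1.08 and 0.846 in unstimulated KLF2+ libraries. They were 1.34 and 1.54 in stimulated KLF2- and 1.17 and 1.15 in unstimulated KLF2- libraries. A smaller factor gives a higher CPM. In the correction, background reads were subtracted and the scaling was taken from genes of at least 50 CPM. With scaling from those genes alone, the log2 fold change at the median of the tested genes shifted by -1.20 in the stimulated comparison of KLF2+ with KLF2-, by -0.51 in the KLF2+ response, by 0.39 in the KLF2- response and by -0.28 in the unstimulated comparison. In these bulk samples, fewer cells of a type and less RNA per cell cannot be told apart.

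The labelled cell type was checked against its markers. All 8 T cell markers were detected, with summed levels of 6241 to 6584 CPM in stimulated KLF2+, 4644 to 6867 in unstimulated KLF2+, 2484 to 2542 in stimulated KLF2- and 3483 to 3817 in unstimulated KLF2- libraries. Marker CPM carry the TMM factors, so gaps between groups depend on that scaling. Corrected marker levels were not computed, and a smaller sum therefore does not show less T cell RNA. Klf2, the gene of the sorted reporter, reached 303 and 379 CPM in the unstimulated KLF2+ cells and 41.0 and 65.0 CPM in the unstimulated KLF2- cells. With stimulus it was at 93.5 and 139 CPM in KLF2+ cells and 46.5 and 75.8 CPM in KLF2- cells, a smaller gap, and as counted it was called higher in KLF2+ cells both with and without stimulus and lower with stimulus in KLF2+ cells. The 15 myeloid markers summed to 79.6 to 126 CPM in stimulated KLF2+, 1010.3 to 1819.8 in unstimulated KLF2+, 136 to 148 in stimulated KLF2- and 145 to 188 in unstimulated KLF2- libraries. Their most abundant gene, Lyz2, reached 705 and 1376 CPM in the unstimulated KLF2+ cells, against 3.25 and 3.45 CPM in the unstimulated KLF2- cells. Of the 15, 14 fell with stimulation in KLF2+ cells, and 4 were higher in KLF2+ cells without stimulus. Of 8 B cell markers 2, and of 5 NK cell markers 1, were higher in unstimulated KLF2+ cells as well. Myeloid cells also express STAT, JAK and SOCS genes, and their part in the results on unstimulated KLF2+ cells was not tested.

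Within a library, levels between genes were compared as deposited TPM, which is scaled by length. Socs1 had the highest mean of the 10 members in stimulated KLF2+ cells (234 ± 44.7 TPM), stimulated KLF2- cells (163 ± 159 TPM) and unstimulated KLF2- cells (289 ± 39.7 TPM; SD, n = 2 each). In unstimulated KLF2+ cells Stat4 led at 141 ± 1.34 TPM, and Socs1 averaged 70.9 ± 30.9 TPM (SD, n = 2). The SD of Socs1 in stimulated KLF2- cells was close to its mean, with replicate 3 at 275 TPM and replicate 4 at 50.6 TPM. Stat4 averaged 158 ± 3.93 TPM there (SD, n = 2) and was above Socs1 in replicate 4, at 155 TPM, so the lead of Socs1 in this group rests on replicate 3. The lowest means were those of Cish in unstimulated KLF2+ cells (14.1 ± 2.41 TPM), Socs3 in stimulated KLF2- cells (19.2 ± 8.20 TPM) and Socs3 in unstimulated KLF2- cells (37.4 ± 5.67 TPM; SD, n = 2 each). In stimulated KLF2+ cells Stat5b was lowest at 37.9 ± 0.375 TPM, beside Stat5a at 41.7 ± 2.83 TPM (SD, n = 2 each). The members varied unequally over the 8 libraries. The SD of log2 CPM was largest for Cish (1.72), Socs3 (1.47), Socs1 (1.35) and Socs2 (1.27), smaller for Jak3 (0.89) and Stat5a (0.68), and smallest for Stat4 (0.49), Stat3 (0.43), Stat5b (0.40) and Stat6 (0.35).

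**Figure D1:**
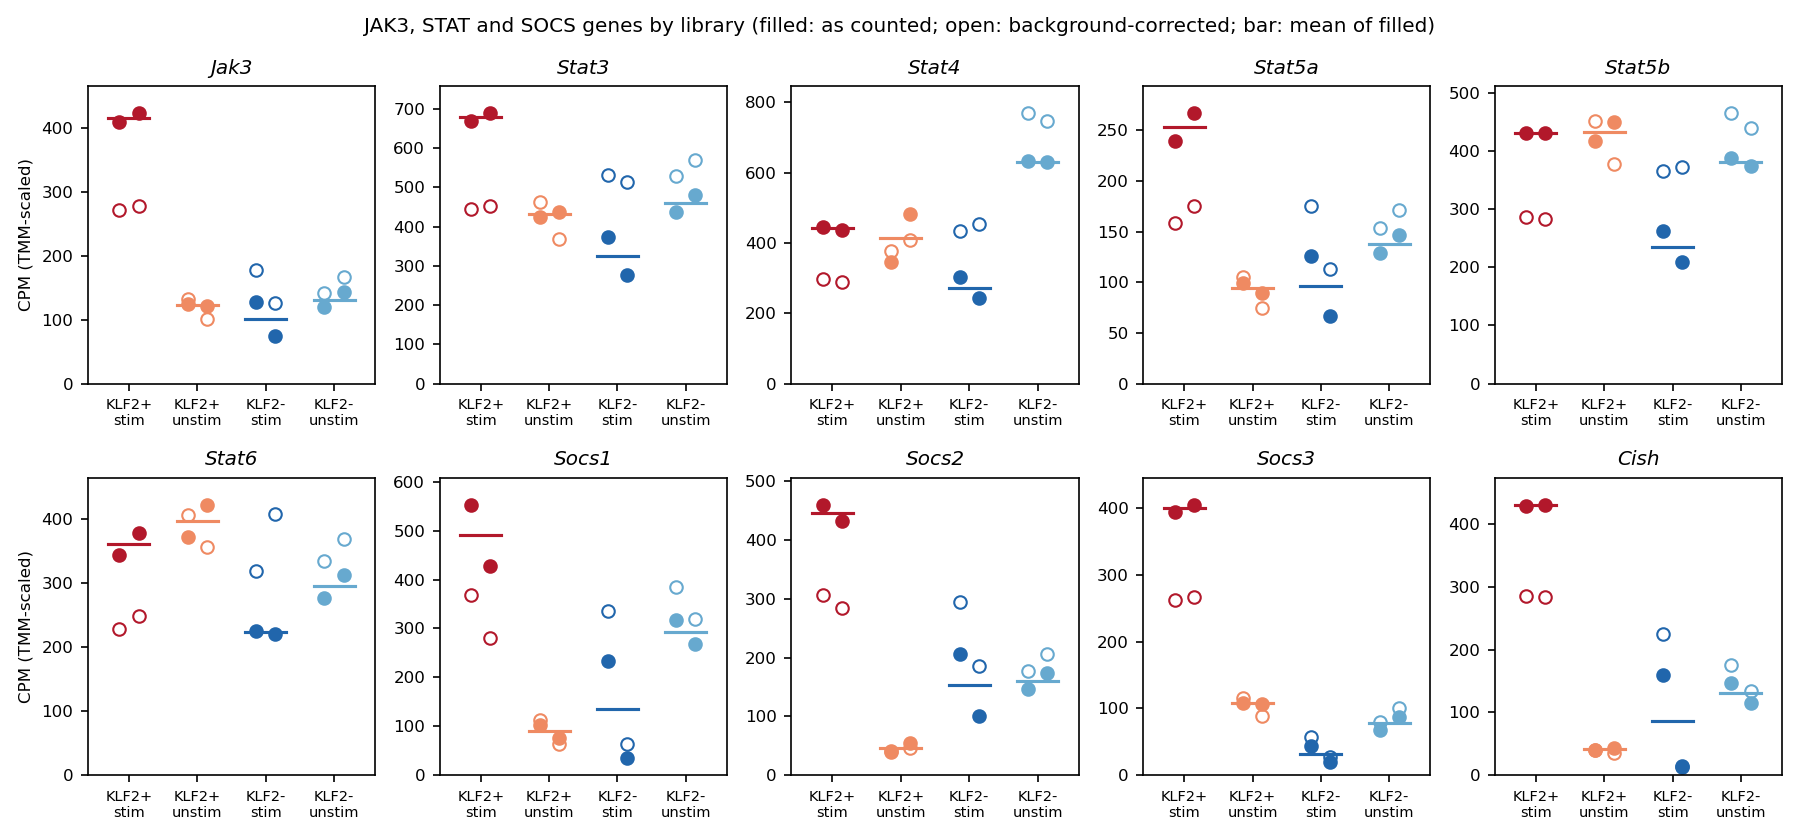
Level of each member in every library, in CPM with TMM scaling (filled) and after background correction (open rings), with bars at the mean of the filled points, for stimulated and unstimulated KLF2+ and KLF2- cells. The correction also took the scaling from genes of at least 50 CPM. Jak3 lies at 409.8 and 424 CPM in stimulated KLF2+ libraries and at 73.8 to 143 CPM in all others, whereas the points of Stat5b and Stat6 in the KLF2+ groups lie close together.

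In KLF2+ cells, Jak3, Stat3, Stat5a and all 4 SOCS family genes rose with stimulation as counted. Jak3 stood at 409.8 and 424 CPM in stimulated KLF2+ cells, against 125 and 121 CPM in unstimulated KLF2+ cells. Both stimulated libraries lay above both unstimulated ones, and the log2 fold change came to 1.76 ± 0.27 (SE, 2 libraries a group, Benjamini-Hochberg adjusted p = 0.00235, quasi-likelihood test of edgeR). In the same comparison 7 of the 10 members rose, none fell and 3 did not pass, where 37.1% of all genes were called, 19.7% higher and 17.4% lower. After background correction 5 members rose, 3 fell and 2 did not pass, where 29.1% of genes were called, 12.7% higher and 16.4% lower. The median log2 fold change of the members was 1.59 as counted and 1.07 after correction, beside -0.25 and -0.24 over all genes tested. Both stimulated libraries lay above both unstimulated ones for 7 members and below them for none, where 35.2% of all genes lay above and 40.1% below. The myeloid markers, of which 14 of 15 fell, moved with this comparison too, and their part was not tested.

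The SOCS genes held the largest folds of the KLF2+ response. Socs2, an inhibitor best known on the growth hormone receptor, was at 461 and 432 CPM with stimulus and 38.8 and 54.5 CPM without. Its log2 fold change was 3.25 ± 0.35 (SE, edgeR adjusted p = 0.000565), and 2.78 after correction (edgeR adjusted p = 0.00165). Cish, which is induced by STAT5 and acts on IL-2 receptor signals, was at 429.6 and 432 CPM with stimulus and 39.6 and 42.8 CPM without. This was the largest fold among the members, a log2 fold change of 3.38 ± 0.80 (SE, edgeR adjusted p = 0.0130), and 2.92 after correction (edgeR adjusted p = 0.0470). Socs3, which binds gp130 and limits IL-6 signals, was at 394 and 406 CPM with stimulus and 108 and 107 CPM without. Its groups did not overlap, and its log2 fold change was 1.90 ± 0.32 (SE, edgeR adjusted p = 0.00359) as counted and 1.37 after correction (edgeR adjusted p = 0.0179). Socs1, which blocks the JAK kinase domain and restrains interferon-gamma signals, was at 553 and 428 CPM with stimulus and 103 and 75.1 CPM without. Its log2 fold change of 2.46 ± 0.64 (SE, edgeR adjusted p = 0.0186) was 1.90 after correction, where it did not pass (edgeR adjusted p = 0.0605). Without unstimulated KLF2+ replicate 1 or 2, the adjusted p by edgeR was 0.106 and 0.0788 for Socs1, and 0.112 and 0.0521 for Cish, so both calls were lost.

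Among the STAT genes of KLF2+ cells, Stat5a was called higher with and without correction, and Stat5b was not. Stat5a, which carries IL-2 and IL-7 signals together with Stat5b, was at 239 and 267 CPM with stimulus and 99.0 and 89.9 CPM without. It rose with a log2 fold change of 1.42 ± 0.28 (SE, edgeR adjusted p = 0.00658), and of 0.90 after correction (edgeR adjusted p = 0.0292). Stat5b was at 431 and 431 CPM with stimulus and 417 and 449.8 CPM without, and these groups overlapped. Its log2 fold change was -0.01 ± 0.21 (SE, edgeR adjusted p = 0.974), but after correction it fell by 0.54 on the log2 scale (edgeR adjusted p = 0.0207). Stat3, used by IL-6, IL-10, IL-21 and IL-23, was at 670.0 and 689.6 CPM with stimulus and 425 and 438 CPM without. It passed as counted, at 0.66 ± 0.23 (SE, edgeR adjusted p = 0.0467), but in 3 of 16 alternatives only, and stood at 0.11 after correction (edgeR adjusted p = 0.558). It lost the call without any 1 of 6 libraries, namely each KLF2+ library and each unstimulated KLF2- library, where the adjusted p by edgeR was 0.0573 to 0.248. Stat4, the IL-12 transducer, was at 445 and 438 CPM with stimulus and 346 and 483 CPM without. Stat6, the IL-4 transducer, was at 345 and 379 CPM with stimulus and 372 and 423 CPM without. The groups of both genes overlapped, and neither was called as counted, with log2 fold changes of 0.09 ± 0.24 and -0.14 ± 0.20 (SE). After correction both fell, by 0.43 for Stat4 (edgeR adjusted p = 0.0300) and by 0.67 for Stat6 (edgeR adjusted p = 0.0197) on the log2 scale. Jak3, Stat5a, Socs2 and Socs3 were called higher in all 16 alternatives of this comparison.

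Stimulation of KLF2- cells gave no called member in the main edgeR fit and none among all genes (0% called), although 2802 genes had an unadjusted p under 0.05. DESeq2 called 67, Stat4 among them (-1.14, DESeq2 adjusted p = 0.0194). With the replicate number as a block, which left 2 residual degrees of freedom, edgeR called 770 of 19146 genes. Stat4, Socs1, Socs3 and Cish were lower among them. After correction, without that block, edgeR called no member and no gene (0%), and 2048 genes had an unadjusted p under 0.05. The median log2 fold change of the members was -0.55 as counted and -0.23 after correction, beside 0.06 and 0.13 over all genes tested. Both stimulated libraries lay below both unstimulated ones for 7 members and above them for none, where 30.2% of all genes lay below and 31.2% above. Stat4, Stat5b and Socs3 had an unadjusted p under 0.05. Stat4 was at 303 and 242 CPM in stimulated KLF2- cells and 632 and 629 CPM in unstimulated KLF2- cells. Both stimulated libraries lay below both unstimulated ones, with a log2 fold change of -1.21 ± 0.24 (SE, edgeR adjusted p = 0.268) as counted and -0.78 ± 0.12 after correction (SE, edgeR adjusted p = 0.199). Socs3 was at 43.2 and 19.2 CPM with stimulus and 68.0 and 86.9 CPM without, a log2 fold change of -1.30 ± 0.33 (SE, edgeR adjusted p = 0.268) as counted and -1.07 ± 0.32 after correction (SE, edgeR adjusted p = 0.308). Stat5b was at 262 and 208 CPM with stimulus and 387 and 375 CPM without. Its stimulated libraries also lay below the unstimulated ones, with a log2 fold change of -0.70 ± 0.21 (SE, edgeR adjusted p = 0.269) as counted and -0.29 ± 0.13 after correction (SE, edgeR adjusted p = 0.378). Jak3, at 128 and 73.8 CPM with stimulus and 120.3 and 143 CPM without, and Socs2, at 207 and 101 CPM with stimulus and 146 and 174 CPM without, overlapped, with log2 fold changes of -0.38 ± 0.26 and -0.06 ± 0.32 as counted and -0.01 ± 0.20 and 0.34 ± 0.21 after correction (SE). Stat3, Stat5a and Stat6 had log2 fold changes of -0.50 ± 0.23, -0.52 ± 0.28 and -0.40 ± 0.20 (SE) as counted. After correction these were -0.07 ± 0.14, -0.17 ± 0.24 and 0.05 ± 0.16 (SE), each smaller than its SE. The 2 stimulated libraries were furthest apart for Cish and Socs1. Cish was at 159.6 and 13.1 CPM in stimulated replicates 3 and 4, against 146 and 114 CPM in unstimulated KLF2- cells. Socs1 was at 233 and 35.7 CPM in stimulated replicates 3 and 4, against 316 and 268 CPM in unstimulated KLF2- cells. Their log2 fold changes were -0.59 ± 0.74 and -1.11 ± 0.62 as counted and -0.34 ± 0.85 and -0.81 ± 0.63 after correction (SE). Replicate 4 was the lower for both, and the expected background amounted to 44.5% of its Cish reads and 27.3% of its Socs3 reads, beside at most 7.89% in any other library. Without replicate 3, Socs1, Socs3 and Cish were called lower, with log2 fold changes of -3.08, -2.06 and -3.36 as counted. Without replicate 4, Cish stood at 0.29 and was not called (edgeR adjusted p = 0.760).

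**Figure D2:**
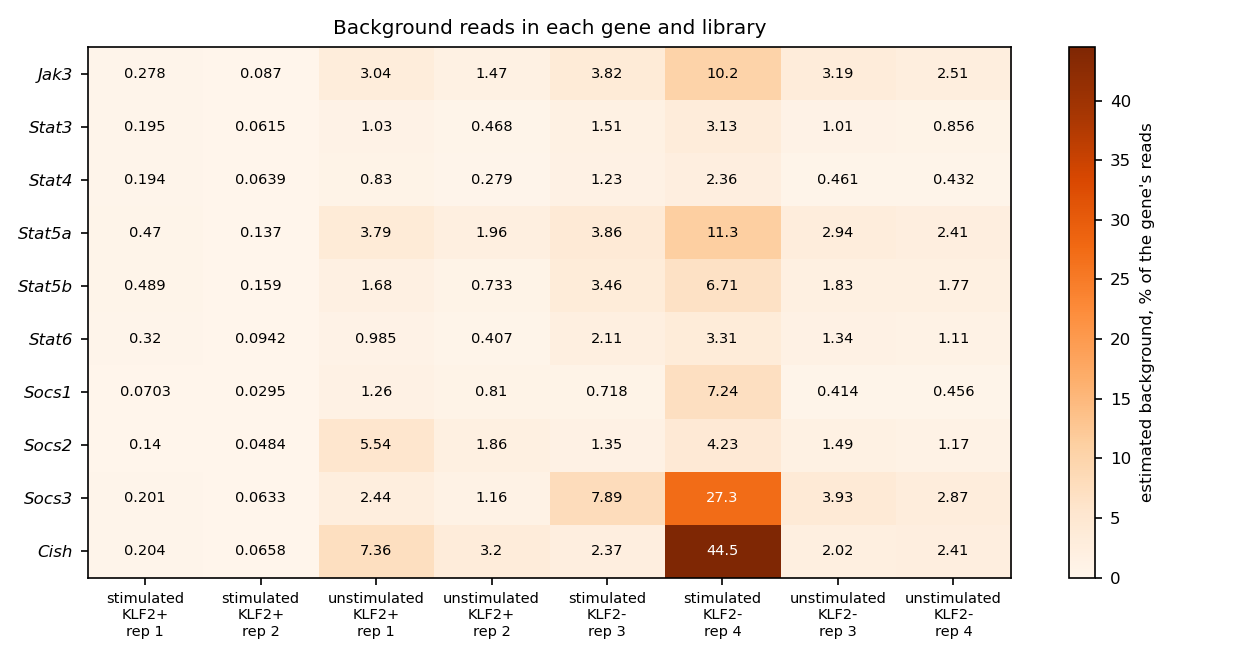
Expected background as a percentage of each member's reads in each library, from the density over olfactory and vomeronasal receptor genes. The darkest cells are Cish (44.5%) and Socs3 (27.3%) in stimulated KLF2- replicate 4, and every other library stays at or under 7.89%.

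The responses of the populations differed for most members as counted. The difference in response, KLF2+ minus KLF2-, was called for 8 of the 10, all positive, where 35.8% of all genes were called, 20.3% higher and 15.5% lower. It was 3.31 ± 0.46 for Socs2 (SE, edgeR adjusted p = 0.00880) and 3.20 ± 0.46 for Socs3 (SE, edgeR adjusted p = 0.00941) on the log2 scale. It was 3.97 ± 1.07 for Cish (SE, edgeR adjusted p = 0.0260) and 3.58 ± 0.89 for Socs1 (SE, edgeR adjusted p = 0.0225). Jak3 gave 2.14 ± 0.37 (SE, edgeR adjusted p = 0.0131) and Stat5a 1.95 ± 0.40 (SE, edgeR adjusted p = 0.0171). Stat5b and Stat6 did not pass, at 0.69 ± 0.30 and 0.27 ± 0.29 (SE, edgeR adjusted p = 0.0889 and 0.449). After correction Jak3 at 1.25, Socs2 at 2.45 and Socs3 at 2.43 stayed called (edgeR adjusted p = 0.0411, 0.0282 and 0.0348), where 11.8% of all genes were called, 3.58% higher and 8.23% lower. Cish at 3.26 ± 1.23, Socs1 at 2.704 ± 0.90 and Stat5a at 1.07 ± 0.34 (SE) had large corrected differences too but did not pass (edgeR adjusted p = 0.105, 0.0801 and 0.0719), and those of Cish and Socs1 were larger than those of the members called. Stat3 and Stat4 came to 0.19 ± 0.20 and 0.35 ± 0.16, and Stat5b and Stat6 to -0.25 ± 0.18 and -0.72 ± 0.22 (SE) after correction. The median over the members was 2.04 as counted and 1.16 after correction, beside -0.09 and -0.24 over all genes tested. As counted, the calls leaned on single libraries: without unstimulated KLF2- replicate 4 none of the 10 was called, and without unstimulated KLF2- replicate 3 or unstimulated KLF2+ replicate 1 only 2 of the 10 were called, Socs2 and Socs3. Without unstimulated KLF2- replicate 4 the adjusted p by edgeR was 0.0557 for Socs2 and 0.0623 for Socs3. Leaving out stimulated KLF2- replicate 3 or replicate 4 gave 6.76 and 3.10 for Cish, and 5.55 and 2.80 for Socs1. Stat3 and Stat4, at 1.15 ± 0.32 and 1.30 ± 0.34 (SE, edgeR adjusted p = 0.0278 and 0.0244), also lost the call without either stimulated KLF2+ library or stimulated KLF2- replicate 4. Of the myeloid markers, 11 of 15 had a lower response in KLF2+ cells.

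**Figure D3:**
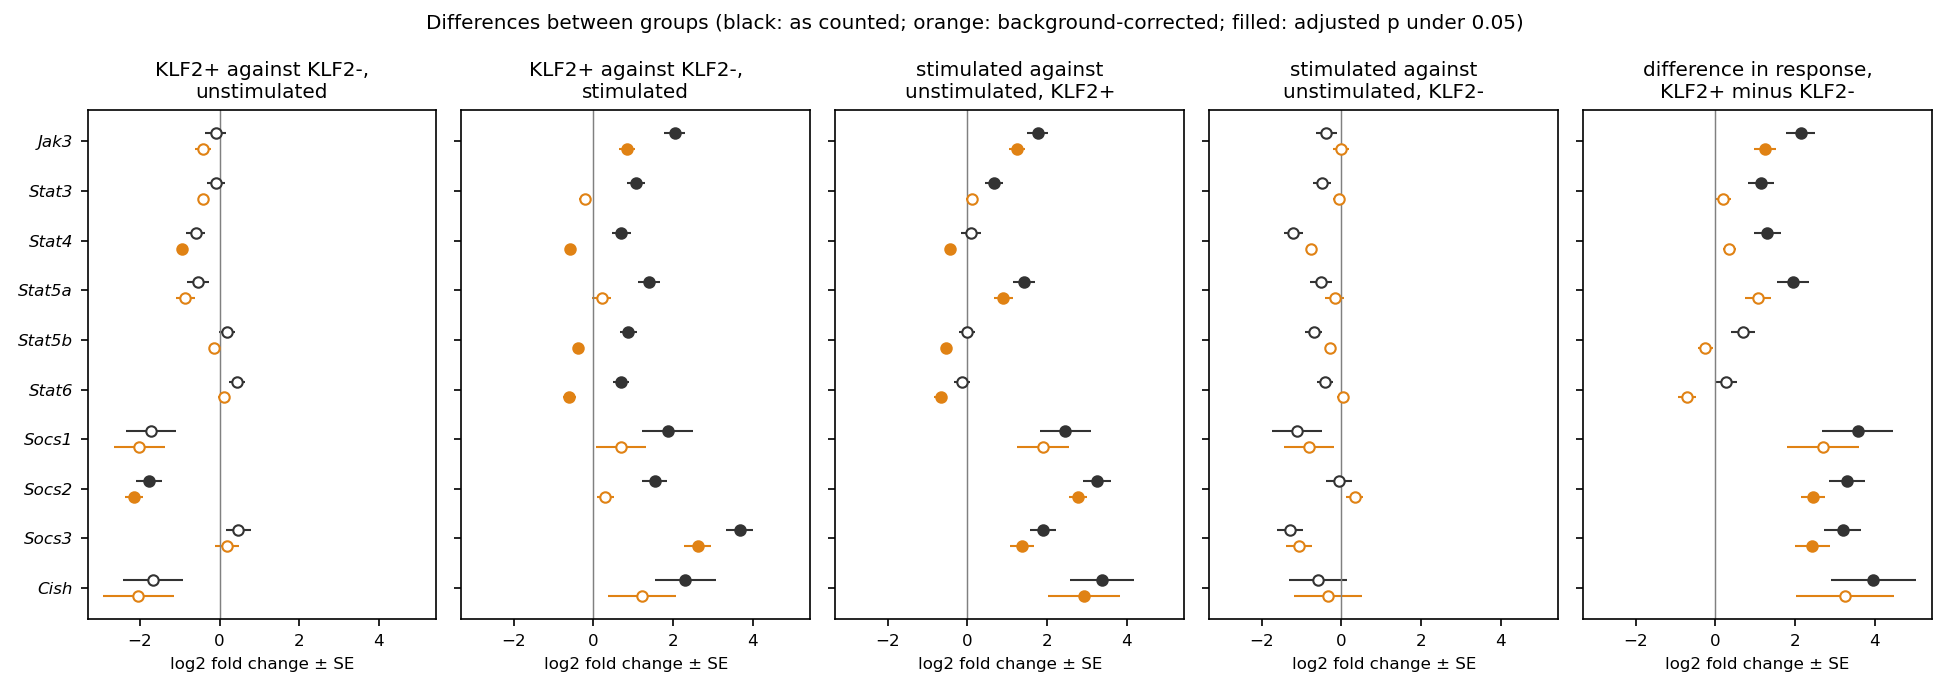
Log2 fold change of each member with SE bars for the comparisons of groups, as counted and after background correction, which also took the scaling from genes of at least 50 CPM. As counted, all 10 members are above 0 in stimulated KLF2+ against stimulated KLF2- cells, and Stat3, Stat4, Stat5b and Stat6 are below 0 there after correction.

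With stimulus, all 10 members were called higher in KLF2+ than in KLF2- cells as counted, with TMM scaling. Of all genes 75.2% were called there, 35.5% higher and 39.7% lower. In CPM both KLF2+ libraries lay above both KLF2- libraries for all 10, where 43.2% of all genes lay above and 47.2% below. Deposited TPM, which carries no TMM factor, placed only Jak3, Socs3 and Cish above in this way. Stat3, Stat4, Stat5b and Stat6 lay below in TPM, and Socs1, Socs2 and Stat5a overlapped. Stat4, for example, was at 96.35 and 93.5 TPM in stimulated KLF2+ cells, against 161 and 155 TPM in stimulated KLF2- cells. After correction Jak3 and Socs3 were higher, Stat4, Stat5b and Stat6 were lower and 5 members did not pass, where 54.5% were called, 16% higher and 38.5% lower. The median log2 fold change of the members was 1.46 as counted and 0.25 after correction, beside -0.19 and -0.46 over all genes tested. Socs3 stood at 394 and 406 CPM in stimulated KLF2+ cells, against 43.2 and 19.2 CPM in stimulated KLF2- cells. Its log2 fold change was 3.67 ± 0.35 (SE, edgeR adjusted p = 0.000229), and 2.62 after correction (edgeR adjusted p = 0.00164). Without stimulated KLF2- replicate 3 it was 4.44, and without replicate 4 it was 3.22. Jak3 stood at 409.8 and 424 CPM in stimulated KLF2+ cells, against 128 and 73.8 CPM in stimulated KLF2- cells. Its log2 fold change was 2.04 ± 0.27 (SE, edgeR adjusted p = 0.000346), and 0.85 after correction (edgeR adjusted p = 0.0115). Jak3 and Socs3 were the members called higher in all 15 alternatives. Of the T cell markers, 7 of 8 were also higher in stimulated KLF2+ cells as counted, under the same TMM scaling. No corrected marker calls were made, and the part of these markers in the result was not tested.

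The other SOCS and STAT genes depended on scaling or on 1 library in this comparison. Cish was at 429.6 and 432 CPM in stimulated KLF2+ cells, against 159.6 and 13.1 CPM in stimulated KLF2- cells. Its log2 fold change was 2.31 ± 0.77 (SE, edgeR adjusted p = 0.0204) as counted and 1.22 after correction (edgeR adjusted p = 0.253). Socs1 and Socs2 stood at 1.86 ± 0.63 and 1.53 ± 0.32 (SE) as counted and at 0.69 and 0.29 after correction, where neither passed. With correction and without stimulated KLF2- replicate 4, a choice made after the data were seen, Socs1, Socs2 and Cish stood at -0.07, -0.03 and 0.31, and none passed. As counted, leaving out stimulated KLF2- replicate 3 or replicate 4 gave 5.10 and 1.44 for Cish, 3.84 and 1.08 for Socs1, and 2.20 and 1.12 for Socs2. Stat4 was at 445 and 438 CPM in stimulated KLF2+ cells, against 303 and 242 CPM in stimulated KLF2- cells. It changed direction: 0.70 ± 0.24 (SE, edgeR adjusted p = 0.0243) as counted and -0.60 after correction (edgeR adjusted p = 0.00491). Stat6 likewise gave 0.70 ± 0.20 (SE, edgeR adjusted p = 0.0114) as counted and -0.61 after correction (edgeR adjusted p = 0.0150). Stat5b gave 0.87 ± 0.21 (SE) as counted and was lower after correction, at -0.38 (edgeR adjusted p = 0.0395). Stat5a gave 1.40 ± 0.28 (SE) and 0.21, and Stat3 gave 1.06 ± 0.23 (SE) and -0.22, and neither passed after correction. As counted, the Stat4 call was lost without any 1 of stimulated KLF2+ replicates 1 and 2, unstimulated KLF2- replicates 3 and 4 and stimulated KLF2- replicate 4 (edgeR adjusted p = 0.0553 to 0.102). The Stat6 call was lost without stimulated KLF2+ replicate 1 or 2 (edgeR adjusted p = 0.0515 and 0.109).

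Without stimulus, Socs2 was the member called, lower in KLF2+ than in KLF2- cells, where 2.32% of all genes were called, 1.07% higher and 1.25% lower. Both KLF2+ libraries lay above both KLF2- libraries for 3 members and below them for 5, where 26.2% of all genes lay above and 32.8% below. Socs2 stood at 38.8 and 54.5 CPM in unstimulated KLF2+ cells, against 146 and 174 CPM in unstimulated KLF2- cells. The groups did not overlap, and the log2 fold change was -1.78 ± 0.33 (SE, edgeR adjusted p = 0.0233), or -2.16 after correction (edgeR adjusted p = 0.00489). The call was lost without any 1 of the 4 unstimulated libraries, where the log2 fold change was -1.48 to -2.04 (edgeR adjusted p = 0.0620 to 0.228). Stat4 stood at 346 and 483 CPM in unstimulated KLF2+ cells, against 632 and 629 CPM in unstimulated KLF2- cells. It did not pass as counted, at -0.60 ± 0.24 (SE, edgeR adjusted p = 0.220), and was lower after correction, at -0.95 (edgeR adjusted p = 0.00860), where 4% of genes were called, 0.975% higher and 3.02% lower. Cish stood at 39.6 and 42.8 CPM in unstimulated KLF2+ cells, against 146 and 114 CPM in unstimulated KLF2- cells. Socs1 stood at 103 and 75.1 CPM in unstimulated KLF2+ cells, against 316 and 268 CPM in unstimulated KLF2- cells. Both SOCS genes had separate groups and log2 fold changes of -1.66 ± 0.75 and -1.72 ± 0.63 (SE), but neither passed (edgeR adjusted p = 0.268 and 0.196). When only the 4 unstimulated libraries were fitted, both were called lower (edgeR adjusted p = 0.000744 and 0.00105). Socs3 stood at 108 and 107 CPM in unstimulated KLF2+ cells, against 68.0 and 86.9 CPM in unstimulated KLF2- cells, with a log2 fold change of 0.47 ± 0.31 (SE, edgeR adjusted p = 0.415) as counted and 0.18 ± 0.30 (SE) after correction. After correction Cish and Socs1 stood at -2.04 ± 0.88 and -2.01 ± 0.65 (SE) and did not pass (edgeR adjusted p = 0.251 and 0.138). Stat5a and Stat6 did not pass, at -0.55 ± 0.28 and 0.43 ± 0.20 as counted and -0.86 ± 0.24 and 0.11 ± 0.16 after correction (SE). The median log2 fold change of the members was -0.32 as counted and -0.63 after correction, beside -0.11 and -0.21 over all genes tested. As counted, Jak3, Stat3 and Stat5b differed by less than 1 SE, at -0.10 ± 0.26, -0.09 ± 0.23 and 0.19 ± 0.21 (SE). After correction they were at -0.40 ± 0.20, -0.40 ± 0.14 and -0.13 ± 0.13 (SE), and none passed (edgeR adjusted p = 0.313, 0.163 and 0.614). Myeloid markers, 4 of 15 called, were higher in unstimulated KLF2+ cells in the same comparison, and their part was not tested.

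Ratios between members of 1 library do not depend on how libraries are scaled to one another. The summed TPM of the 4 SOCS genes over that of the 5 STAT genes was 1.78 and 1.52 in stimulated KLF2+ cells and 0.376 and 0.293 in unstimulated KLF2+ cells. It was 1.07 and 0.338 in stimulated KLF2- replicates 3 and 4, and 0.800 and 0.710 in unstimulated KLF2- cells. Stimulated KLF2+ libraries were the highest and unstimulated KLF2+ libraries among the lowest, while the stimulated KLF2- libraries fell on either side of the unstimulated KLF2- ones. Jak3 over the STAT sum was 0.205 and 0.205 in stimulated KLF2+ cells, 0.0810 and 0.0677 in unstimulated KLF2+ cells, 0.105 and 0.0763 in stimulated KLF2- cells and 0.0654 and 0.0743 in unstimulated KLF2- cells. Stimulated KLF2+ libraries again lay above all others. Stat5a made up 51.0 and 53.7% of the Stat5a and Stat5b sum in stimulated KLF2+ cells, and 30.7 and 27.2% in unstimulated KLF2+ cells. Its share was 47.3 and 37.3% in stimulated KLF2- cells and 38.4 and 42.3% in unstimulated KLF2- cells, which overlapped. With 2 libraries against 2, an exact two-sided permutation test cannot give a p below 0.333, and no test was run on these ratios.

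**Figure D4:**
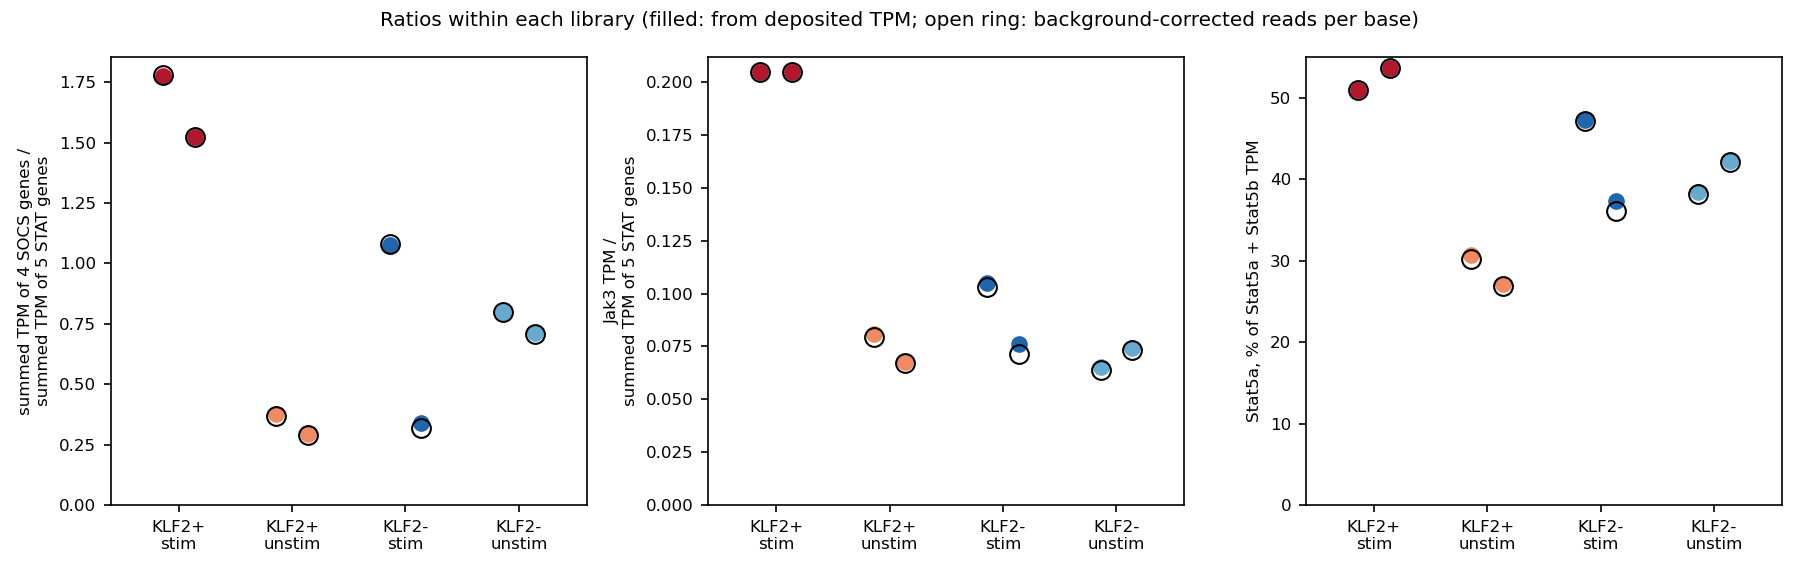
Ratios between members within each library, filled from deposited TPM and open from background-corrected reads per base. The panels show summed SOCS over summed STAT genes, Jak3 over summed STAT genes, and the percentage of Stat5a in Stat5a plus Stat5b, each by group from stimulated KLF2+ on the left to unstimulated KLF2- on the right, and the stimulated KLF2+ points are highest in all panels.

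The makeup of the SOCS and STAT families is given as shares of their summed TPM. Socs3 made up 26.9 and 29.2% of the SOCS sum in unstimulated KLF2+ cells, against 6.64 and 9.14% in unstimulated KLF2- cells. With stimulus it made up 15.9 and 18.5% in KLF2+ cells, against 4.72 and 8.46% in KLF2- cells, so all 4 KLF2+ libraries had a larger share than all 4 KLF2- libraries. Socs2 made up 22.8 and 24.1% in stimulated KLF2+ cells and 11.9 and 18.3% in unstimulated KLF2+ cells. Its highest share was 54.5%, in stimulated KLF2- replicate 4. Stat4 made up 29.7 and 35.6% of the STAT sum in unstimulated KLF2+ cells, against 45.3 and 43.1% in unstimulated KLF2- cells. Stat6 made up 25.1 and 24.4% in unstimulated KLF2+ cells, against 15.6 and 16.8% in unstimulated KLF2- cells. With stimulus Stat4 made up 29.3 and 27.9% in KLF2+ cells, against 32.6 and 33.0% in KLF2- cells. The order for Stat6 with stimulus was opposite to its own order without. It made up 17.8 and 18.9% in stimulated KLF2+ cells, against 19.0 and 23.5% in stimulated KLF2- cells.

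**Figure D5:**
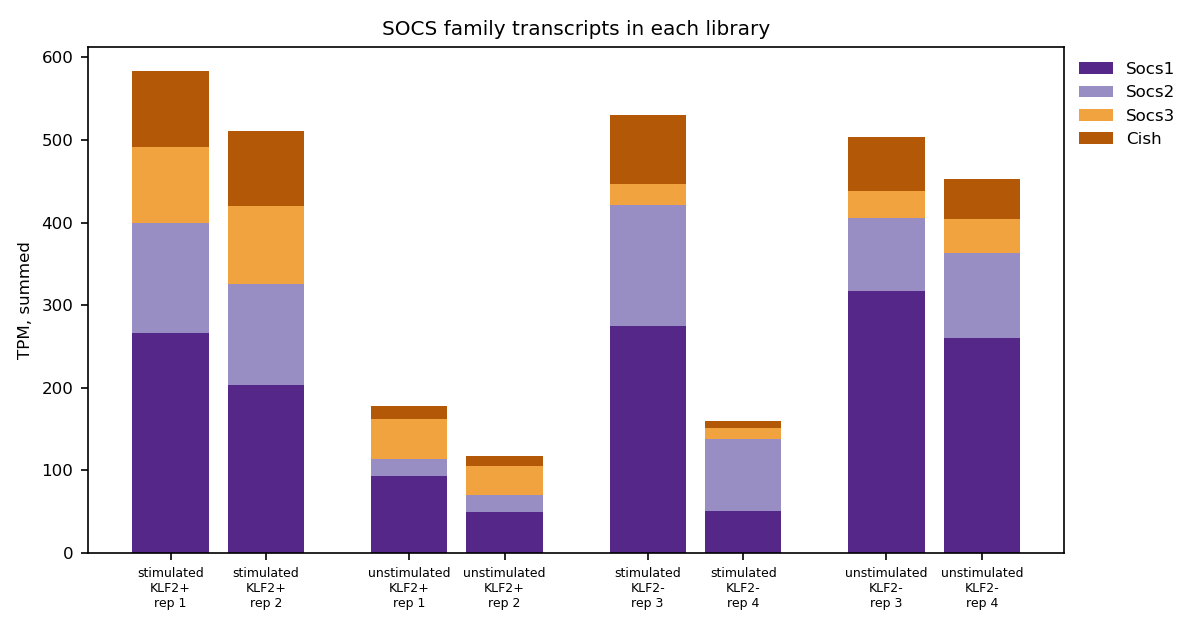
Summed deposited TPM of Socs1, Socs2, Socs3 and Cish in each library, stacked by gene. The sum was 584 and 511 TPM in stimulated KLF2+ and 177 and 117 TPM in unstimulated KLF2+ libraries, and 530.1 and 159 TPM in stimulated KLF2- and 503 and 453 TPM in unstimulated KLF2- libraries.

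Other genes of the pathway were read from lists of 24 receptors, 20 ligands, of which 19 were tested, 21 known STAT targets, 12 other inhibitors and 9 other JAK, STAT and SOCS genes. The lists overlap: Il2ra is among both receptors and targets, and Osm among both ligands and targets. Calls of these genes count in both of their lists. In the KLF2+ response, 7 of 24 receptor genes rose and 6 fell, 9 of 19 ligand genes rose and 2 fell, and 15 of 21 STAT target genes rose and none fell, beside 19.7% of all genes higher and 17.4% lower. After correction 5 receptors rose and 7 fell, 7 ligands rose and 2 fell, and 12 targets rose and 1 fell, beside 12.7% of all genes higher and 16.4% lower. The median log2 fold change as counted was 0.25 over receptors, 1.59 over ligands and 1.73 over targets, beside -0.25 over all genes. Among receptors, Il12rb2, a chain of the IL-12 receptor, was at 208 and 230.0 CPM in stimulated KLF2+ cells, against 7.99 and 8.15 CPM in unstimulated KLF2+ cells, a log2 fold change of 4.76 ± 0.29 (SE, edgeR adjusted p = 8.93e-05). Il12rb1, its partner chain, rose by 3.27 ± 0.46 and Il21r, the IL-21 receptor, by 1.78 ± 0.24 (SE). Il7r, the IL-7 receptor of resting T cells, was at 266 and 298 CPM with stimulus and 1116 and 1428 CPM without, and fell by 2.17 on the log2 scale. Among ligands, Il21 was at 147 and 173 CPM with stimulus and 2.702 and 3.64 CPM without. Il10 was at 92.0 and 115 CPM with stimulus and 1.58 and 1.33 CPM without. Il4 and Ebi3, a subunit of IL-27 and IL-35, rose as well, with log2 fold changes of 4.82 ± 0.43 and 3.36 ± 0.29 (SE). Among targets, Gzmb, which encodes granzyme B, rose by 5.76 ± 0.29 (SE) and stood at 782 and 887 CPM with stimulus and 13.2 and 17.5 CPM without. Bcl3, Prdm1 and Batf rose by 2.72 ± 0.22, 2.47 ± 0.21 and 2.32 ± 0.24 (SE).

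Kinase, STAT and inhibitor genes outside the members were read in the same way. In the KLF2+ response 1 of 9 other JAK, STAT and SOCS genes rose, Jak2 by 0.99 ± 0.22 (SE, edgeR adjusted p = 0.0111), and 3 of 12 other inhibitors rose and 1 fell. The phosphatase genes Ptpn2, Ptpn1 and Ptpn6 rose by 1.16 ± 0.23, 0.92 ± 0.26 and 0.78 ± 0.22 (SE), and Sh2b3, an adaptor that restrains cytokine signals, fell by 0.95 on the log2 scale. After correction Jak2 was at 0.46, Ptpn2 at 0.69 and Ptpn1 at 0.41, all called, and Ptpn6, at 0.26, did not pass (edgeR adjusted p = 0.116). Corrected counts were 1 higher and 1 lower of the 9, and 2 higher and 3 lower of the 12. The added lower calls, named after their values were seen, were Jak1 at -1.16, Pias1 at -0.71 and Pias3 at -1.13. Over these lists edgeR without a replicate block called no gene in the KLF2- response, as counted or after correction. The difference in response was called positive for 6 of 24 receptors, 7 of 19 ligands, 13 of 21 targets, 5 of 12 other inhibitors and 3 of 9 other JAK, STAT and SOCS genes, and negative for 5 receptors and 3 ligands, beside 20.3% of all genes positive and 15.5% negative. After correction it was positive for 2 receptors, 4 ligands, 4 targets, 1 inhibitor and 0 of the 9, and negative for 5 receptors, 1 ligand, 1 inhibitor and 1 of the 9, beside 3.58% of all genes positive and 8.23% negative. As counted it was 4.90 ± 0.38 for Il12rb2 and 5.48 ± 0.38 for Gzmb (SE), and -1.61 for Il7r.

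Between populations, pathway genes were called in few numbers without stimulus, where 1.07% of all genes were called higher and 1.25% lower. As counted, of 24 receptors 2 were higher in KLF2+ cells and 2 lower, of 12 other inhibitors 1 was higher, and no ligand and none of the 9 other JAK, STAT and SOCS genes was called. Il23r, a receptor gene for IL-23, was at 9.57 and 6.69 CPM in unstimulated KLF2+ cells, against 48.3 and 37.3 CPM in unstimulated KLF2- cells. Its log2 fold change was -2.41 ± 0.35 (SE, edgeR adjusted p = 0.00882). Il12rb2 was lower, with a log2 fold change of -1.47 ± 0.27 (SE), and Il7r and Il10ra, the IL-10 receptor chain, were higher by 1.70 ± 0.28 and 1.23 ± 0.18 (SE). Ptpn6 was higher, with a log2 fold change of 1.03 ± 0.23 (SE). After correction, where 0.975% of all genes were called higher and 3.02% lower, 1 receptor was higher and 3 lower, 1 inhibitor was higher, and 1 ligand and 1 of the 9 were lower. Il23r, Il12rb2, Il10ra and Ptpn6 kept their calls, at -2.97, -2.06, 0.96 and 0.70, and Il7r lost its call, at 1.37 (edgeR adjusted p = 0.0501). The genes added, named after their values were seen, were Ifngr2 at -1.19, Il15 at -1.78 and Jak2 at -0.81 (edgeR adjusted p = 0.0287, 0.0485 and 0.0278). With stimulus, where 35.5% of all genes were called higher and 39.7% lower as counted, 13 of 24 receptors were higher in KLF2+ cells and 5 lower, 11 of 19 ligands higher and 3 lower, 18 of 21 targets higher and 2 lower, 8 of 12 other inhibitors higher and 1 lower, and 3 of the 9 other JAK, STAT and SOCS genes higher and 1 lower. After correction, where 16% of all genes were called higher and 38.5% lower, 4 receptors were higher and 10 lower, 8 ligands higher and 5 lower, 10 targets higher and 3 lower, 3 other inhibitors higher and 4 lower, and 0 of the 9 higher and 4 lower. Il12rb2 was at 208 and 230.0 CPM in stimulated KLF2+ cells, against 25.7 and 14.6 CPM in stimulated KLF2- cells. Ifng, the gene of interferon-gamma, was at 176 and 135 CPM in stimulated KLF2+ cells, against 18.5 and 8.71 CPM in stimulated KLF2- cells.

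For the 3 members that varied most, the genes of most alike pattern over the 8 libraries were ranked by Pearson's r of log2(CPM + 1) among 9997 genes, as a description, since libraries share background and depth. For Cish they were Slc33a1 (r = 0.978), Mbnl3 (0.978) and Pros1 (0.977). For Socs3 they were Wdr33, Dpp9 and Tmem248 (0.994 each). For Socs1 they were Gbp5 (0.988), Slc33a1 (0.978) and N4bp1 (0.977).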

How the data were processed

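RNA sequencing libraries from 8 mouse CD4 T cell samples were used. The authors deposited estimated counts in steps of 0.5, made per the file headers with HOMER over the exons of its mm10 RefSeq genes, 1 row per gene, unadjusted for depth. They also deposited TPM. The submitters' processing notes name STAR 2.7.9, HOMER 4.11, SAMtools and DESeq2. How reads were filtered and whether counting used strand is not given in the sources used here. The labels say that RNA was extracted with Qiagen RNeasy, that libraries followed a SMARTer stranded pico protocol, and that the molecule was polyA RNA.

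The estimated counts were rounded and fitted in edgeR 4.0.16 (R 4.3.3) with filterByExpr over the groups, TMM scaling and 1 coefficient per group over all 8 libraries, which left 4 residual degrees of freedom. Quasi-likelihood F tests gave p-values, adjusted by Benjamini-Hochberg over 19146 genes and called under 0.05. The SE is the absolute log2 fold change over the square root of F. CPM uses the TMM factors. Deposited TPM was used for levels between genes and for ratios within a library. The correction measured background per kb on 1471 receptor genes of smell (Olfr, Vmn1r and Vmn2r, with exons of 1696.8 kb), multiplied it by exon length and subtracted it. TMM factors then came from genes with 50 CPM or more, and 15281 genes were tested. DESeq2 1.42.0, RLE scaling, no filter, scaling from abundant genes alone, fits of the groups compared, the replicate number as a block and leaving out each library were the other alternatives. The test was tried on simulated counts. Exon reads per library, 2.99 to 36.6 M, and 2 libraries a group limit the precision. Named genes are all 10 members, the 3 genes most alike in pattern for each of the 3 most variable members, and up to 4 called genes of smallest p in each pathway list, of which some are not reported here. The members and lists were chosen with earlier results of these data known.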

Additional observations from a re-analysis of the deposited data

Results flagged for a closer look

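The response to stimulus differed between KLF2+ and KLF2- cells for 8 members, by the test of the difference itself in edgeR. The difference, KLF2+ minus KLF2- on the log2 scale, was 2.14 for Jak3, 1.15 for Stat3, 1.30 for Stat4 and 1.95 for Stat5a. It was 3.58 for Socs1, 3.31 for Socs2, 3.20 for Socs3 and 3.97 for Cish. In KLF2+ cells both stimulated libraries lay above both unstimulated ones in CPM for 7 of the 8, where 35.2% of all genes lay above and 40.1% below. Stat4 overlapped, and its log2 fold change with stimulus was 0.09 in KLF2+ and -1.21 in KLF2- cells. The calls of these differences leaned on single libraries, as described above. Of all genes 35.8% were called in this test. After background correction 11.8% of all genes were called, and Jak3, Socs2 and Socs3 passed, at 1.25, 2.45 and 2.43. Cish at 3.26 and Socs1 at 2.704 had larger corrected differences but did not pass, nor did Stat5a at 1.07, Stat3 at 0.19 and Stat4 at 0.35. No cause of the differences was tested.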

How the results depend on the processing

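Of the members, only Jak3, Stat5a, Socs2 and Socs3 in the KLF2+ response and Jak3 and Socs3 in the stimulated comparison were called under every alternative run. Genes called numbered 444 in the unstimulated comparison (33 to 1692 with 1 library left out), 14396 in the stimulated comparison, 7096 in the KLF2+ response (2097 to 8971 with 1 library left out), 0 in the KLF2- response (0 to 107 with 1 library left out) and 6855 in the difference in response (70 to 9581 with 1 library left out). Members called numbered 1 in the unstimulated comparison (0 to 3 with 1 library left out), 10 in the stimulated comparison, 7 in the KLF2+ response (4 to 7 with 1 library left out), 0 in the KLF2- response (0 to 3 with 1 library left out) and 8 in the difference in response (0 to 9 with 1 library left out). DESeq2 gave 1117 genes in the unstimulated comparison, 67 genes in the KLF2- response and 1 member in the KLF2- response. Scaling from genes of at least 50 CPM gave 2 members in the unstimulated comparison and 4 members in the stimulated comparison. Background correction gave 2 members in the unstimulated comparison, 8325 genes in the stimulated comparison, 5 members in the stimulated comparison, 4451 genes in the KLF2+ response, 1804 genes in the difference in response and 3 members in the difference in response. A fit of only the groups compared gave 828 genes in the unstimulated comparison, 3 members in the unstimulated comparison and 5 members in the stimulated comparison. Correction without stimulated KLF2- replicate 4, chosen after the data were seen, gave 1492 genes in the unstimulated comparison, 5 members in the unstimulated comparison, 6940 genes in the stimulated comparison, 4 members in the stimulated comparison, 402 genes in the KLF2- response, 1 member in the KLF2- response, 1132 genes in the difference in response and 4 members in the difference in response. The replicate block gave 10851 genes in the KLF2+ response, 770 genes in the KLF2- response, 4 members in the KLF2- response and 10857 genes in the difference in response. No filter on low counts gave 2 genes in the KLF2- response. Signs turned under RLE scaling for Jak3 0.0069, Stat3 0.018 in the unstimulated comparison, Socs2 0.035 in the KLF2- response. Signs turned under DESeq2 for Jak3 0.013, Stat3 0.025 in the unstimulated comparison, Socs2 0.016 in the KLF2- response. Signs turned under scaling from genes of at least 50 CPM for Stat5b -0.11 in the unstimulated comparison, Stat3 -0.11, Stat4 -0.49, Stat5b -0.31, Stat6 -0.50 in the stimulated comparison, Stat4 -0.40 in the KLF2+ response, Socs2 0.29 in the KLF2- response, Stat5b -0.20, Stat6 -0.63 in the difference in response. Signs turned under background correction for Stat5b -0.13 in the unstimulated comparison, Stat3 -0.22, Stat4 -0.60, Stat5b -0.38, Stat6 -0.61 in the stimulated comparison, Stat4 -0.43 in the KLF2+ response, Stat6 0.046, Socs2 0.34 in the KLF2- response, Stat5b -0.25, Stat6 -0.72 in the difference in response. Signs turned under correction without stimulated KLF2- replicate 4, chosen after the data were seen for Stat5b -0.13 in the unstimulated comparison, Stat3 -0.27, Stat4 -0.60, Stat5a -0.095, Stat5b -0.39, Stat6 -0.45, Socs1 -0.073, Socs2 -0.026 in the stimulated comparison, Stat4 -0.45 in the KLF2+ response, Jak3 0.21, Stat5a 0.11, Socs2 0.63, Cish 0.55 in the KLF2- response, Stat5b -0.26, Stat6 -0.55 in the difference in response. With 1 library left out, signs turned for Stat3 (-0.15 to 0.0029) in the unstimulated comparison, Jak3 (-0.21 to 0.037) in the unstimulated comparison, Stat4 (-0.16 to 0.39) in the KLF2+ response, Stat5b (-0.092 to 0.088) in the KLF2+ response, Socs2 (-0.71 to 0.36) in the KLF2- response and Cish (-3.36 to 0.29) in the KLF2- response. The cause was not tested. Correlations of deviations between same-numbered libraries were 0.556 in KLF2+ and 0.087 in KLF2- cells. The value in KLF2+ cells leaves a pairing possible there. The labels state no pairing and the value in KLF2- cells was low, so the main fit did not use the numbers to pair the samples. The block called Stat4, Socs1, Socs3 and Cish lower in the KLF2- response, among 770 of 19146 genes called, and left 2 residual degrees of freedom. Depth, 2.99 M exon reads in stimulated KLF2- replicate 4, limits Cish and Socs3 there.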
